A study of Mus musculus with 12 samples.

Results

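The AP-1 and Egr immediate-early genes were followed in germ cells and somatic cells of the fetal mouse ovary after exposure to dexamethasone (dex), an agonist of the glucocorticoid receptor. The members were taken by gene name, with no measured value in the rule, and comprised Fos, Fosb, Fosl1, Fosl2, Jun, Junb, Jund, Egr1, Egr2 and Egr3. All 10 were found, 1 row each, among the 54532 rows of the count table, of which 36214 held at least 1 count. All embryos were female and carried the Tg(Pou5f1-EGFP)2Mnn reporter, in which regulatory sequence of Pou5f1 (OCT4) drives green fluorescent protein in germ cells. Dams were injected once a day from embryonic day (E) 12.5 to E15.5, 4 times in all. They received saline or dex (10 µg for each g of maternal weight). Ovaries were taken on the afternoon of E15.5, after the last injection that morning, so changes within minutes of a dose were not sampled. The 12 bulk RNA-seq libraries formed 4 groups of 3: GFP-positive germ cells after dex, GFP-positive germ cells after saline, GFP-negative somatic cells after dex and GFP-negative somatic cells after saline. Ovaries from several litters were combined for each library, the labels called the libraries biological replicates, and the somatic fraction was every viable cell without GFP rather than 1 cell type.

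Immediate-early genes are transcribed within minutes of a stimulus from factors that are already present in the cell. Proteins of the Fos family pair with proteins of the Jun family through leucine zippers to form AP-1, which binds DNA and drives later genes, whereas the Egr proteins are zinc finger factors that bind GC-rich sites. Their promoters are controlled by serum response factor (SRF) with its ternary complex partners at CArG boxes and by CREB family factors at cyclic AMP response elements, and the ligand-bound glucocorticoid receptor is known to restrain AP-1 at many genes. The same genes also respond to the dissociation of tissue, and the ovaries here were digested with trypsin before sorting.

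Promoter sequence from RefSeq (assembly GRCm38.p6, windows from 250 bases before to 50 after each start site) was matched for 7 of the 10 genes, those other than Fosl1, Egr1 and Egr3. Egr2 had 5 windows and each of the other 6 genes had 1. The 120 bases before the start site are shown for Fos, the gene that changed most in somatic cells, for its close relative Fosb, and for Egr2, which held a CArG box in 4 of its windows. Capitals mark the core of the cyclic AMP response element, TGACG on the strand shown or CGTCA where it lies on the other strand, and the CArG box of Egr2. The regions are chr12:85473770-85473889 (plus strand) for Fos, chr7:19310046-19310165 (minus strand) for Fosb and chr10:67537749-67537868 (plus strand) for Egr2.
Fos: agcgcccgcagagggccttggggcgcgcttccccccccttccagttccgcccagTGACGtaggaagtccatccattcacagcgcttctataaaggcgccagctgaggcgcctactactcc
Fosb: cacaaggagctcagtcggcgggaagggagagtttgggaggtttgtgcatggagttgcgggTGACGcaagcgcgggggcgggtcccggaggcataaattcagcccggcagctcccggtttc
Egr2: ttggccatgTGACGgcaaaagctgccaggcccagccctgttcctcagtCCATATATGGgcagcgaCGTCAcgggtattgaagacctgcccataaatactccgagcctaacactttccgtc
Both strands were searched, and a gene was counted as holding a motif if any of its windows did. The TGACG core was held by 4 of the 7 genes (Fos, Fosb, Junb and Egr2), against 23.0% of all 27025 genes with a window. It began 66 bases before the start site in Fos, with another copy at 129 bases, and 60 bases before it in Fosb. The CArG box was held by Egr2, 72 bases before the start in the window shown, and by 1.81% of all genes. The AP-1 site TGANTCA was held by 0 of the 7 genes and 8.97% of all, the palindromic glucocorticoid response element by 0 of 7 and 0.0111% of all, and the Egr site GCGNGGGCG by Fosb and Fosl2 and 6.27% of all. These matches describe letters in a short window and no binding was measured.

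Total counts ranged from 14658503 to 18245507 and detected genes from 23206 to 26454, and the ranges of depth of germ and somatic libraries overlapped. Levels are given in CPM, the count scaled to the library total and its TMM factor, and 3 counts corresponded to between 0.169 and 0.201 CPM. The sort matched its labels: 8 germ cell markers summed to between 2772 and 3327 CPM in germ cell libraries and to between 3.71 and 22.1 CPM in somatic libraries, and all 8 were higher in germ cells after saline. In somatic cells all 4 glucocorticoid target genes examined rose with dex, on the log2 scale by 1.29 for Fkbp5, 1.68 for Per1, 1.08 for Tsc22d3 and 6.94 for Zbtb16. In germ cells Per1 rose by 1.91 and Zbtb16 by 2.96, and Fkbp5 (0.33) and Tsc22d3 (-0.04) did not pass the test. The germ cell call of Zbtb16 was lost without dex 2, dex 3 or saline 3 (adjusted p of up to 0.145). A gene was called at a Benjamini-Hochberg adjusted p of 0.05 or less in edgeR's quasi-likelihood test over all genes tested.

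The sorted somatic cells of the E15.5 ovary held abundant transcripts of most of the set. All levels were measured after digestion and sorting, and the part of this handling in them was not tested. Levels of different genes were compared in deposited FPKM (depth-scaled fragments per kilobase of exon), which corrects for length. In saline somatic cells Fos was at 416 ± 45.5 FPKM (SD, n = 3) and Egr1 at 358 ± 18.8 FPKM, and their libraries overlapped. Jun followed at 232 ± 15.4 FPKM, below both without overlap. By mean FPKM these genes ranked 62, 80 and 126 among the 28144 genes with a value above 0 in that group.
Jund (119 ± 19.2 FPKM) and Fosb (101 ± 13.0 FPKM) overlapped each other, and Junb lay below at 80.6 ± 7.32 FPKM. The other genes were lower by a wide margin, Fosl2 at 14.8 FPKM, Egr2 at 13.2, Egr3 at 6.12 and Fosl1, the least abundant, at 2.62, with no overlap between neighbours in this order. Fos therefore made up 77.7% ± 1.68 of the summed FPKM of the 4 Fos family genes, and Egr1 lay above the summed FPKM of Egr2 and Egr3 in every library.

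**Figure D1:**
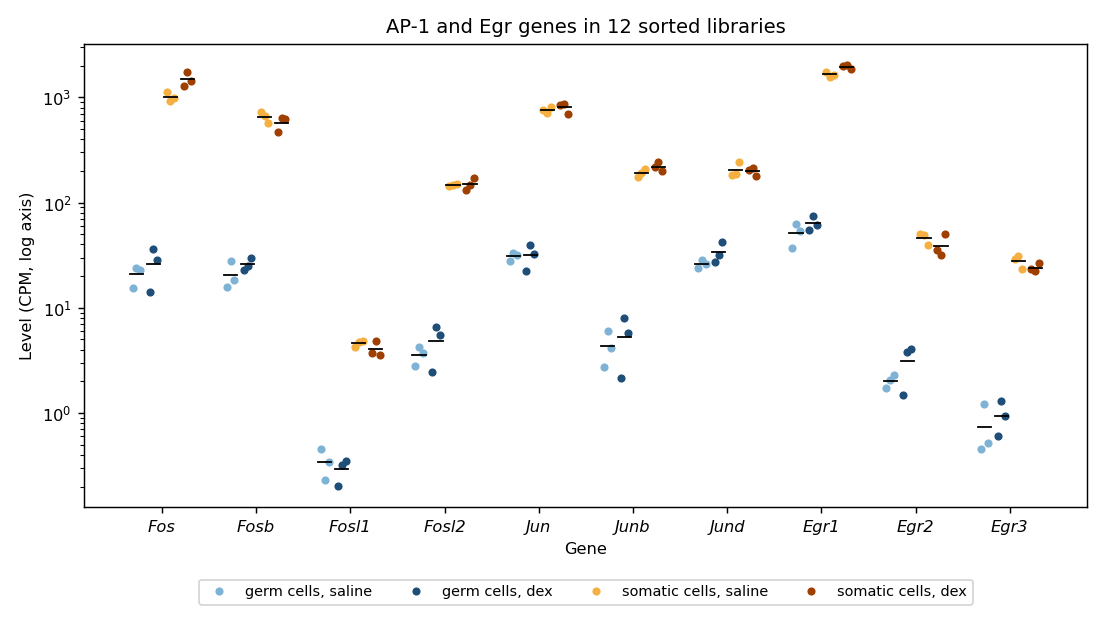
Level of each gene in CPM on a log axis, with 1 point per library (n = 3 per group) and a bar at the group mean. For all 10 genes every germ cell library lay below every somatic library.

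Germ cells held far less of every one of these transcripts. After saline all 10 genes were lower in germ cells than in somatic cells in edgeR's test, where 42.9% of all genes tested were lower, and the median log2 difference was -4.98. In dex-treated embryos all 10 were again lower, against 42.2% of all genes tested, with a median of -4.68. In bulk RNA, fewer cells of a type and less RNA per cell cannot be told apart. Whether germ and somatic cells differed in their response to dissociation was not tested.

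Among the Fos family, Fos itself, the founding partner of Jun proteins in AP-1, stood at 15.6, 23.9 and 23.1 CPM in saline germ cells and at 1126, 916 and 980 CPM in saline somatic cells. Its log2 difference was -5.58 (SE 0.15, edgeR adjusted p = 5.37e-14), the largest of the set, and germ cells held 2.07% of the somatic mean. Fosb, a paralog with a truncated isoform known from chronically stimulated neurons, stood at 15.9, 27.9 and 18.3 CPM in saline germ cells and at 733, 659 and 567 CPM in saline somatic cells, a log2 difference of -4.97.
Fosl2 (Fra-2) and Fosl1 (Fra-1) encode Fos-related proteins without the strong activation domain of Fos. Fosl2 was lower in saline germ cells by a log2 difference of -5.35, from 2.78 to 4.20 CPM in germ cells and from 145 to 151 CPM in somatic cells. Fosl1 reached 4 to 7 counts in a saline germ cell library and 3 to 6 counts in a dex germ cell library, so its level there was close to the floor of 3 counts. Its log2 difference after saline was -3.72 (edgeR adjusted p = 1.28e-07).

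Among the Jun family, Jun, the main DNA-binding partner of Fos, measured 28.0, 32.9 and 31.8 CPM in saline germ cells and 762, 715 and 813 CPM in saline somatic cells. The germ cell libraries of Jun lay close together, and the log2 difference was -4.61 (edgeR adjusted p = 4.24e-15). Junb, a weaker activator that can restrain Jun, was lower by a log2 difference of -5.45.
Jund, the Jun family member that many resting cells express, showed the smallest gap. It measured 23.6, 28.3 and 26.1 CPM in saline germ cells and 184, 189 and 243 CPM in saline somatic cells, a log2 difference of -2.97 (SE 0.11, edgeR adjusted p = 2.45e-12). Germ cells held 12.7% of its somatic mean, against 2.07% to 7.43% for the other 9 genes. In FPKM, Jund was the most abundant gene of the set in saline germ cells, at 15.8 ± 1.37 FPKM, above Egr1 (11.5 ± 2.88 FPKM) without overlap, and it took 57.5% ± 1.08 of the Jun family sum there compared with 27.5% ± 1.93 in saline somatic cells. After dex, the germ cell libraries of Jund and Egr1 overlapped. Even Jund ranked only 3846 of the 30079 genes with a value above 0 in saline germ cells.
Jun, Junb and Jund overlap the annotated genes Junos, Prdx2 and Gm11175, and whether counting used strand is not given in the sources used here, so their values are uncertain to the extent that reads were shared. Gm11175 had 0 CPM in all groups, Junos between 2.31 and 3.43 CPM on average, and Prdx2 356 CPM in saline somatic cells.

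The Egr family followed the same order in both cell types. Egr1, which turns on within minutes of growth factor signals, stood at 37.2, 62.4 and 53.8 CPM in saline germ cells and at 1742, 1576 and 1645 CPM in saline somatic cells, a log2 difference of -5.00 (edgeR adjusted p = 2.55e-13). Egr2, known for its part in Schwann cell myelination, differed by -4.50 and Egr3, a target of Egr1-type signals in muscle spindles and lymphocytes, by -5.21. Egr3 was at 0.45, 1.22 and 0.51 CPM in saline germ cells, the lowest of the set in FPKM together with Fosl1, whose libraries it overlapped.

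For 10 of 10 genes the lowest of the 6 germ cell libraries was dex 1 or saline 1, and for 5 of them these libraries were the lowest pair. The share of all genes with this order was not computed. Across genes, the deviations of dex 1 and saline 1 from their group means correlated by 0.17 (Pearson r). For Fosb, Jund, Egr1 and Egr3 the lowest pair was saline 1 and saline 3, and Fosl1, near the floor, was highest in saline 1. The summed level of 8 pregranulosa markers (Foxl2, Wnt4, Fst, Wnt6, Irx3, Kitl, Gng13 and Rspo1) was also lowest in these libraries, at 24.5 CPM in dex 1 and 33.3 CPM in saline 1, against 55.2 to 103 CPM in the other 4. Other marker lists had other orders. The stromal sum was lowest in saline 1 (142 CPM) and dex 3 (160 CPM), with dex 1 at 184 CPM, the endothelial sum was highest in dex 1 (59.5 CPM), and the erythroid sum was lowest in dex 3 (9.91 CPM). The macrophage sum was lowest in saline 1 (5.30 CPM) and dex 1 (5.89 CPM), and the perivascular sum in saline 1 (6.27 CPM) with dex 1 at 10.2 CPM. None of the 8 pregranulosa markers was at 0 throughout a germ cell group. Relative to the somatic mean of the same treatment, the median of the 10 genes in a germ cell library ranged from 2.34% to 4.63%. The median of the pregranulosa markers ranged from 3.57% to 12.6%, and that of 8 stromal markers from 0.395% to 0.895%. The median of the 10 genes lay between those of these lists in every germ cell library, and Jund, at 11.5% to 21.2%, lay above both medians. Single markers reached higher. The stromal marker Nr2f1, at 21.8% to 32.5%, lay above Jund in every germ cell library, and the pregranulosa marker Foxl2 ranged from 3.74% to 29.4%. The endothelial marker Tek lay above its somatic mean in every germ cell library, at 197% to 377%, and Pecam1 ranged from 11.4% to 49.0%. The endothelial sum given above is therefore no clean measure of endothelial cells. Egfl7 was lowest in dex 1 (1.18%) and saline 1 (1.39%), whereas Cdh5 was highest in dex 1 (20.8%). How much of the germ cell signal came from somatic RNA was not tested.

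**Figure D2:**
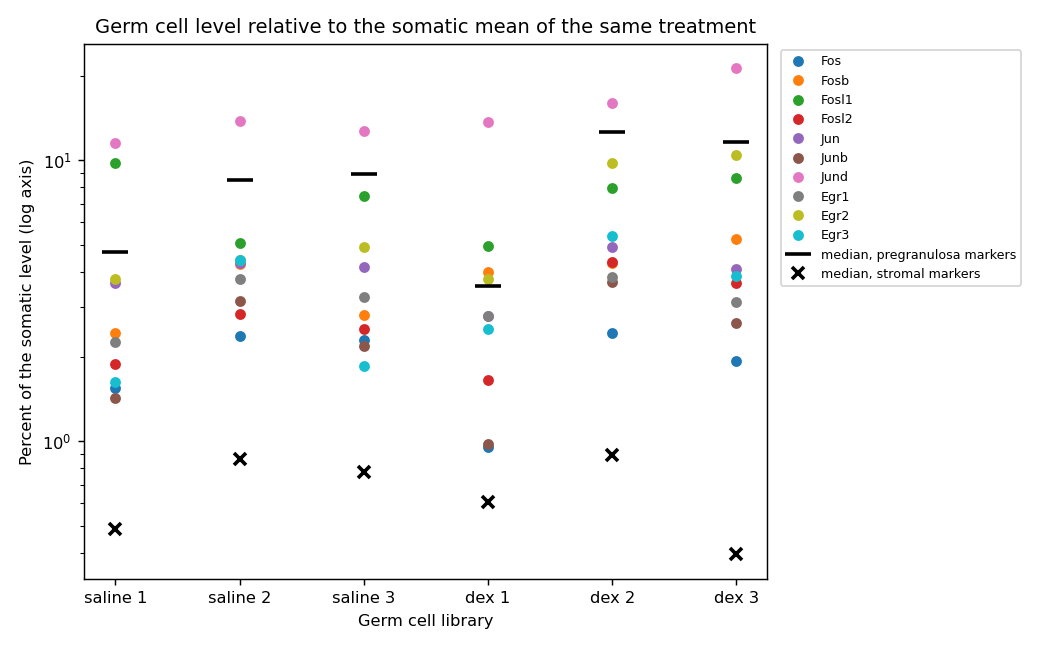
Level of each gene in each germ cell library as a percentage of the somatic mean of the same treatment, on a log axis, with the medians of 8 pregranulosa markers (dashes) and 8 stromal markers (crosses). Jund lies highest of the 10 genes in every library, and the medians over the 10 genes run from 2.34% to 4.63%.

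Whether dex altered these genes in the somatic cells was asked by comparing 3 dex with 3 saline somatic libraries. Fos and Egr1 rose, none of the 10 fell, and the other 8 did not pass the test. This made 2 of 10 called, both up, where 8.18% of all genes tested were called and 4.81% were called up. The dex and saline libraries did not overlap for these same genes, 2 of 10, where 25.4% of all genes tested did not overlap. The median log2 change of the 10 was -0.02, and that of all genes tested was 0.00.

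Fos (chr12:85473890-85477273, GRCm38) measured 1288, 1733 and 1417 CPM after dex and 1126, 916 and 980 CPM after saline. All dex libraries lay above all saline libraries. The log2 change was 0.55 (SE 0.11, 95% interval 0.33 to 0.78, edgeR adjusted p = 0.00511). The call held when any 1 of the 6 libraries was left out, with log2 changes of 0.41 to 0.65.
Egr1 measured 1975, 2026 and 1848 CPM after dex and 1742, 1576 and 1645 CPM after saline. The groups did not overlap, but the gap was narrow, and the log2 change was 0.23 (SE 0.06, 95% interval 0.09 to 0.37, edgeR adjusted p = 0.0407). The call of Egr1 was lost when dex 1 (adjusted p = 0.108), dex 2 (0.177), saline 1 (0.0783), saline 2 (0.222) or saline 3 (0.113) was left out of the edgeR fit, and it was kept without dex 3 (0.00593). When all 12 libraries shared 1 estimate of spread, neither gene was called, at nearly the same log2 changes. The edgeR adjusted p was then 0.158 for Fos and 0.401 for Egr1. DESeq2 called both genes, with DESeq2 adjusted p = 0.0131 for Fos and 0.00295 for Egr1. It called 2 of the 10, where it called 1477 of 16262 genes tested.

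**Figure D3:**
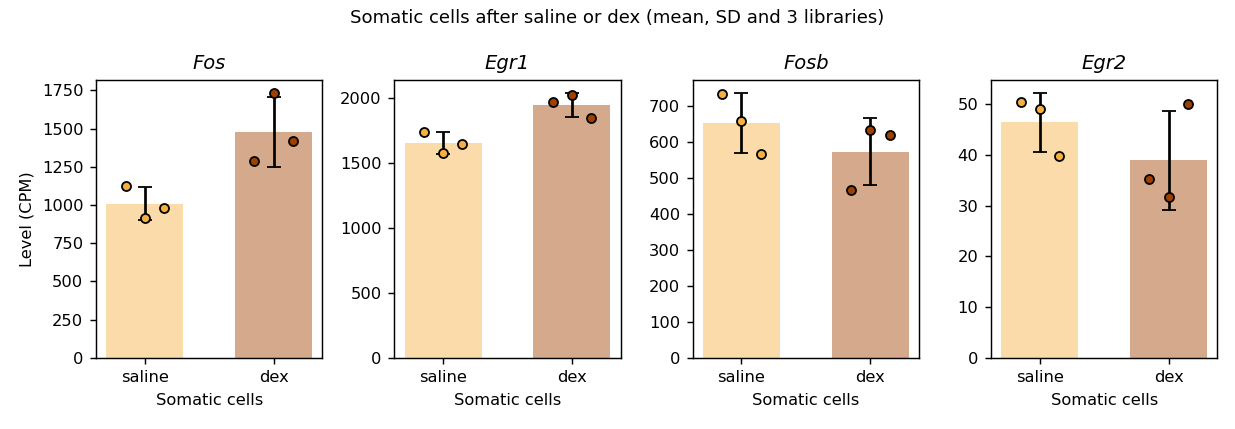
CPM of Fos, Egr1, Fosb and Egr2 in somatic cells, with bars at the mean, error bars of 1 SD and 1 point per library (n = 3 per group). The dex libraries lie above all saline libraries for Fos and Egr1 and overlap them for Fosb and Egr2.

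The close relatives of Fos and Egr1 did not pass the test in somatic cells. Fosb measured 466, 634 and 618 CPM after dex and 733, 659 and 567 CPM after saline, and the groups overlapped (log2 change -0.19, 95% interval -0.44 to 0.06). The ratio of Fos to Fosb in CPM was 2.76, 2.73 and 2.29 in the dex somatic libraries and 1.54, 1.39 and 1.73 in the saline somatic libraries. These ratios did not overlap, and the exact two-sided permutation test gave p = 0.1, the smallest that 3 against 3 allows. This ratio was chosen after the values were seen. In FPKM, the share of Fos in the Fos family was 85.1% ± 1.40 after dex and 77.7% ± 1.68 after saline.
Fosl2 showed a log2 change of 0.02 (95% interval -0.16 to 0.20) and Jun one of 0.06 (-0.12 to 0.24), the narrowest intervals of the uncalled genes. Jund was at -0.06 (-0.27 to 0.16). Fosl1, at 3.57 to 4.85 CPM in the somatic libraries, had a wider interval, with a log2 change of -0.19 (-0.68 to 0.30).
Junb measured 217, 242 and 198 CPM after dex and 174, 190 and 209 CPM after saline, a log2 change of 0.19 (0.00 to 0.38, edgeR adjusted p = 0.230). Egr2 measured 35.2, 31.7 and 50.1 CPM after dex and 50.3, 49.1 and 39.7 CPM after saline, a log2 change of -0.26 (-0.57 to 0.06). In both genes the libraries numbered 3 lay within the range of the other group. Without dex 3 the edgeR test called 4 genes of the set, Fos, Egr1 and Junb (log2 change 0.26, adjusted p = 0.0468) up and Egr2 (log2 change -0.48, adjusted p = 0.00675) down. Over all genes the calls also grew without dex 3, to 1881 of 16993 tested, from 1354 of 16556 with all libraries. Without saline 3 the log2 changes were 0.26 for Junb and -0.36 for Egr2, and neither was called (edgeR adjusted p = 0.175 and 0.264). Egr3 was at -0.21 (-0.48 to 0.06) with all libraries.

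Markers of several somatic cell types also moved with dex in these libraries. Of 8 macrophage markers 3 fell (Adgre1, Cd68 and Csf1r), and their summed level was 133 to 172 CPM after saline and 42.1 to 101 CPM after dex. Of 6 endothelial markers 3 fell (Cdh5, Egfl7 and Tie1), with sums of 306 to 357 CPM after saline and 269 to 296 CPM after dex. Of 8 stromal markers 1 rose (Pdgfra), and the sums of the groups overlapped, as did those of 6 erythroid markers. Of 8 pregranulosa markers 1 fell (Wnt4), and of 5 perivascular markers 1 rose (Cspg4). Of these calls, those of Egfl7 and Wnt4 were lost in 5 of 6 omissions of a library (kept without saline 1 and without dex 3, respectively), Tie1 without saline 2 or 3, and Cdh5 without saline 3. Germ cell markers summed to 3.71 to 6.90 CPM in saline and 15.46 to 22.1 CPM in dex somatic libraries, and among them Dazl rose and Pou5f1 and Dppa3 were at 0 in the dex group. Of 14 heat shock genes, which like the AP-1 genes respond to handling, 2 fell (Dnaja1 by 0.31 and Hsph1 by 0.44 on the log2 scale) and none rose, and their summed level was 7258 to 7498 CPM after saline and 7185 to 7400 CPM after dex. In germ cells the heat shock sums did not overlap, at 10061 to 10398 CPM after saline and 9187 to 9409 CPM after dex. The part of these shifts in the changes of Fos and Egr1 was not tested.

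In germ cells no member of the set was called after dex. Of the 10 genes 9 passed the filter on low counts. Among these 9, edgeR called 0, where it called 0.208% of all genes tested. DESeq2 called 0 genes of the set, where it called 158 of 18367 genes tested. At an unadjusted p under 0.05 there was 1 gene, Jund. The groups overlapped for 9 of 9, where 17.4% of all genes tested did not overlap. The log2 changes of all 9 were positive, where 8933 of 16857 genes tested were positive. Their median was 0.34, against 0.01 over all genes tested. Across the 12 libraries, after removal of group means, Fos correlated with the others of these 9 by 0.50 to 0.92 (Pearson r). The 9 signs are therefore not independent.

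Fos measured 14.1, 36.0 and 28.6 CPM in dex germ cells and 15.6, 23.9 and 23.1 CPM in saline germ cells. The libraries numbered 1 were the lowest of each group, and the log2 change of 0.34 had a 95% interval of -0.25 to 0.92. This interval includes the somatic log2 change of 0.55. Egr1 measured 54.4, 74.9 and 61.2 CPM after dex and 37.2, 62.4 and 53.8 CPM after saline, a log2 change of 0.32 (-0.04 to 0.67, edgeR adjusted p = 0.488).
Jund measured 27.0, 31.6 and 42.0 CPM after dex and 23.6, 28.3 and 26.1 CPM after saline. The dex 1 library lay within the saline range, and the log2 change was 0.38 (0.06 to 0.69, edgeR adjusted p = 0.355). Jun, in contrast, had a log2 change of 0.03 (-0.33 to 0.40).
Intervals of the less abundant genes were wide. Log2 changes were 0.33 for Fosb (-0.07 to 0.74), 0.45 for Fosl2 (-0.25 to 1.14), 0.32 for Junb (-0.56 to 1.19), 0.64 for Egr2 (-0.15 to 1.42) and 0.37 for Egr3 (-0.74 to 1.48). Fosl1, which was not tested here, had 3, 5 and 6 counts after dex and 7, 4 and 6 counts after saline. Of the 8 pregranulosa markers 7 also had positive log2 changes in germ cells, with a median of 0.51, and 0 of the 8 were called by edgeR or DESeq2 (1 at an unadjusted p under 0.05). The somatic marker level of a library was the log2 of its summed CPM over the pregranulosa and stromal markers together. In germ cell libraries the stromal sum (142 to 280 CPM) was larger than the pregranulosa sum (24.5 to 103 CPM). With this level in the model, the log2 changes were 0.11 for Fos, 0.23 for Fosl2, 0.21 for Egr1 and 0.15 for Egr3. Those of Jun (-0.094) and Junb (-0.010) turned negative. Jund stayed at 0.35, Fosb was at 0.29, and Egr2, at 0.48, remained the largest. None of these was called.

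The difference between the germ cell and somatic responses was itself tested in 1 model over all 12 libraries. None of the 10 genes was called, where 1.62% of all genes tested were called, and 3 of the 10 (Fosb, Jund and Egr2) had an unadjusted p under 0.05. DESeq2 called 0 of the 10, where it called 620 of 15850 genes tested. For Fos the germ cell effect minus the somatic effect was -0.23 on the log2 scale (-0.88 to 0.43, edgeR adjusted p = 0.792), and for Egr1 it was 0.07 (-0.34 to 0.48, edgeR adjusted p = 0.918). The rise of Fos and Egr1 in somatic cells was therefore not shown to differ from the response of germ cells. The largest differences were those of Egr2 (0.88, 0.09 to 1.68), Egr3 (0.56), Fosb (0.51) and Jund (0.42), and Egr2 was called without germ cell library dex 1 (log2 difference 1.22, edgeR adjusted p = 0.0429).

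**Figure D4:**
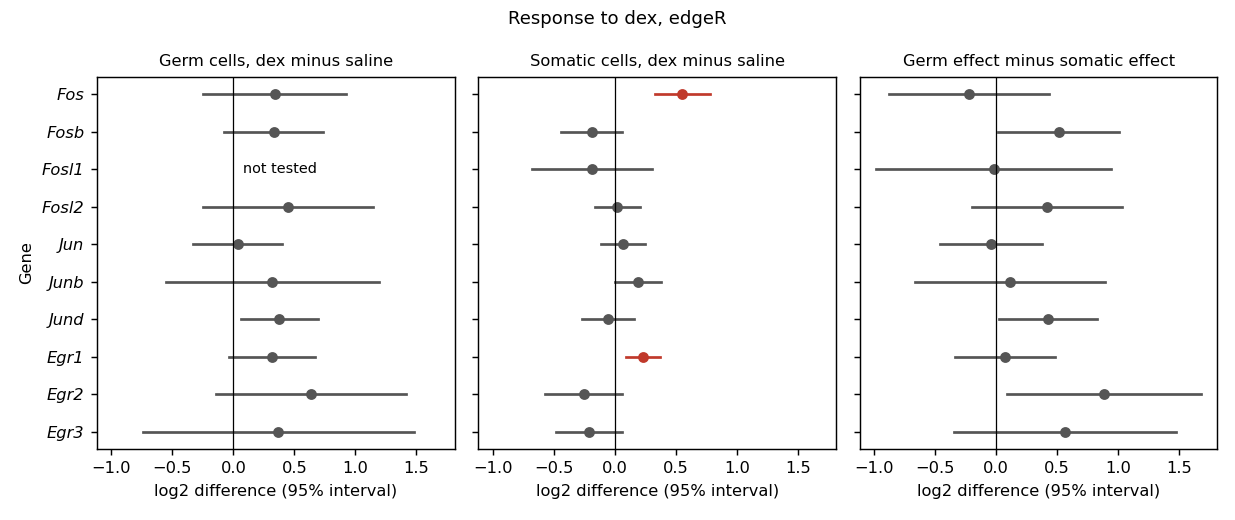
Log2 difference of dex and saline in germ cells (left) and somatic cells (middle), and the germ cell effect minus the somatic effect (right), with 95% intervals from edgeR (n = 3 per group). Red marks the called genes, Fos and Egr1 in somatic cells, and Fosl1 was not tested in germ cells.

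Other immediate-early genes gave a background for the set. Of 28 such genes tested by edgeR in somatic cells, 6 rose and none fell after dex, with a median log2 change of 0.18. Over all genes tested, edgeR called 4.81% up. DESeq2 called 7 of the 28 up and 1 down. Maff, a small Maf protein that also dimerizes with Fos proteins, rose most, from 29.0 ± 4.30 to 80.9 ± 4.20 CPM, a log2 change of 1.47 (SE 0.10, edgeR adjusted p = 6.09e-07). Nfil3, a bZIP repressor tied to the circadian clock, rose by 0.86 on the log2 scale, and Rhob, a small GTPase, rose by 0.57, from 281 ± 21.9 to 418 ± 20.3 CPM. Ctgf, a matricellular protein and target of YAP and SRF signals, also rose by 0.57, and Gadd45g, a stress sensor, rose by 0.39. The call of Gadd45g was lost when dex 2, dex 3 or any saline library was left out, with adjusted p of up to 0.142. In germ cells 0 of the 28 were called by edgeR or DESeq2, 2 had an unadjusted p under 0.05, and the median was 0.20. Like the 10 genes, most of these were lower in germ cells after saline, 24 of 28, and 2 were higher.

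Among other bZIP proteins that can pair with Fos or Jun, 12 are reported here for somatic cells, of which 5 rose. Besides Maff, Jdp2, which represses AP-1 sites, rose from 9.39 ± 1.77 to 16.5 ± 2.52 CPM (log2 change 0.81, edgeR adjusted p = 0.00923), a call lost without dex 2 (adjusted p = 0.0551). Maf rose by 0.47, and Nfe2l2, the factor of the antioxidant response, rose by 0.47. In germ cells 0 of 10 were called by edgeR and 0 by DESeq2, and 3 had an unadjusted p under 0.05.

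Few factors upstream of the set passed the test. Of 10 SRF, ternary complex and CREB family genes, Srf fell from 181 ± 13.5 to 140 ± 5.46 CPM in somatic cells (log2 change -0.37, edgeR adjusted p = 0.00480), and Atf1, a CREB relative, rose by 0.27 on the log2 scale. The call of Atf1 was lost without dex 1, dex 2 or any saline library, with adjusted p of up to 0.190. Of 15 MAP kinases and their kinases 0 were called in somatic cells by edgeR or DESeq2 and 1 had an unadjusted p under 0.05, and the 2 Egr co-repressors (Nab1 and Nab2) were uncalled by either tool in both cell types, with 1 at an unadjusted p under 0.05 in germ cells and 0 in somatic cells. Of 10 textbook AP-1 target genes tested by edgeR in somatic cells only Spp1 (osteopontin) was called, up from 4.22 ± 1.03 to 8.93 ± 3.88 CPM. This call was lost without dex 2, dex 3 or any saline library, with adjusted p of up to 0.164. An unadjusted p under 0.05 was reached by 4 of the 10. Of 13 target genes with a DESeq2 value in somatic cells, Ccl2 and Spp1 were called, 1 up and 1 down. In germ cells 0 of 10 upstream factors, 0 of 14 kinases, 0 of 5 targets and 0 of 14 heat shock genes were called by edgeR, and unadjusted p under 0.05 was reached by 1, 0, 2 and 5 of them. DESeq2 called 1 of these, the heat shock gene Hsp90aa1. The 5 AP-1 targets tested in germ cells all had negative log2 changes, with a median of -0.58. The summed level of the target list in germ cells was 12.5 to 14.5 CPM after saline and 8.80 to 11.4 CPM after dex. Its sums overlapped in somatic cells, at 135 to 147 CPM after saline and 126 to 141 CPM after dex.

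Across the 12 libraries, and after removal of the group means, the profile of Fos was most like that of Adh1 (Pearson r = 0.97), S100a10, Mt1, Nsa2 and Gprc5c (r = 0.96 for these 4), out of 12402 genes. Within the set it was closest to Junb (r = 0.92), Fosl2 (0.91) and Jun (0.89), and less close to Egr1 (0.77), Fosb (0.52) and Jund (0.50). By Spearman rank correlation the order differed, with Junb at 0.88, Jun at 0.85, Egr1 at 0.74 and Fosl2 at 0.73. Egr1 was most like Selenop (r = 0.98), Ehd2, Map1b and Armcx3 (r = 0.97 for these 3) and Fut2 (0.96). These values describe 12 libraries that share dissections, pools and depth.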

How the data were processed

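RNA of 12 sorted libraries (3 per group) was poly-A selected. Per the labels, reads were aligned with HISAT2 2.0.5 to mm10 and counted with featureCounts 1.5.0-p3. The authors deposited raw counts per gene and FPKM values made from them. The authors also deposited their own DESeq2 tables of log2 fold changes and p-values, which were not used. The multi-mapping and strand settings were not given in the sources used here.

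Counts were tested with edgeR 4.0.16 (quasi-likelihood, R 4.3.3) using TMM scaling and filterByExpr. Dex comparisons used the 6 libraries of 1 cell type, germ against somatic comparisons those of 1 treatment, and the difference all 12. P-values were Benjamini-Hochberg adjusted over all genes tested. The study used DESeq2, and DESeq2 1.42.0 was run as an alternative. Intervals cover 95%. The deviations used for likeness had 0.5 CPM added. Reads had no molecular identifiers, so floors cover counting error only. P-values measure the spread among pooled libraries. A listed gene is not reported here and was left out of the counts.

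The rule for the 10 genes uses names alone, but this set of names, the gene lists and the tests were chosen with earlier results of these data known. Named were the 10 genes, the glucocorticoid target genes, up to 5 called genes per list with the largest change and a mean of at least 1 CPM, and the 5 genes most like Fos and Egr1. Other names (marker genes, overlapping genes) were given because a count or value rested on them.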

Additional observations from a re-analysis of the deposited data

Results flagged for a closer look

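Among the listed genes the response to dex differed between the cell types, by the edgeR test of the difference itself (germ cell effect minus somatic effect, log2), for 5. The target genes Zbtb16 (-3.99), Tsc22d3 (-1.13) and Fkbp5 (-0.97) responded less in germ cells, and the call of Zbtb16 was lost without germ cell library saline 2 (adjusted p = 0.0720).

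The immediate-early gene Ier3 differed by 1.45, with 0.592 ± 0.215 CPM after saline and 1.51 ± 0.539 CPM after dex in germ cells and 58.1 ± 5.11 and 52.9 ± 4.83 CPM in somatic cells. Neither response was called on its own, and the difference was lost in 10 of 12 omissions of a library, all but those of germ cell libraries dex 3 and saline 2 (adjusted p of up to 0.166).

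The bZIP gene Nfe2l2 also differed (-0.58). Nfe2l2 was at 40.6 ± 1.42 and 37.6 ± 1.85 CPM in germ cells and at 70.9 ± 2.17 and 98.2 ± 10.3 CPM in somatic cells, and its call was lost without germ cell library dex 3 or saline 3 or somatic library dex 2 or saline 3 (adjusted p of up to 0.0631). Causes of these differences were not tested.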

How the results depend on the processing

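The lower level of all 10 genes in germ cells kept its direction and its call under every alternative run. For dex in somatic cells, Fos and Egr1 were called, and DESeq2 called the same 2. The number called was 0 with all 12 libraries in 1 fit and 1 to 4 when a library was left out. It was 3 without the low-count filter, where Fosb was added as a fall (log2 change -0.20, edgeR adjusted p = 0.0487). Dropping the low-count filter gave 1 call in place of 0 in germ cells (Egr1, adjusted p = 0.0378) and 3 in place of 0 for the difference (Fosb 0.00253, Jund 0.0454 and Egr2 0.0313). For the difference it was 0 to 1 with a library left out. The causes were not tested.

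Signs of uncalled changes turned as follows. With the somatic marker level in the model, germ cell log2 changes were -0.094 for Jun and -0.010 for Junb. With a library left out, they ran from -0.16 to 0.22 for Jun and from -0.11 to 0.68 for Junb in germ cells, and in somatic cells from -0.089 to 0.11 for Fosl2, -0.0088 to 0.15 for Jun and -0.14 to 0.080 for Jund. The difference ran from -0.50 to 0.083 for Fos, -0.23 to 0.21 for Fosl1, -0.22 to 0.16 for Jun, -0.28 to 0.49 for Junb and -0.11 to 0.25 for Egr1.

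Over all genes, germ cell calls numbered 35, against 158 with DESeq2, 420 without the filter, 64 with 12 libraries in 1 fit and 17 to 81 with a library left out. Somatic calls numbered 1354, against 803 with 12 libraries and 754 to 1881 with a library left out. Calls of the difference numbered 314, against 620 with DESeq2, 727 without the filter and 143 to 384 with a library left out.

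Replicate numbers were shared between groups. Same-numbered dex and saline libraries correlated by 0.17, 0.00 and 0.06 in germ cells and by 0.08, -0.00 and 0.04 in somatic cells, so the numbers were not taken to pair them. With the replicate number as a block, 2 of the 10 genes were called in somatic cells, 0 in germ cells and 0 for the difference. All-gene calls with the block were 1520, 49 and 313. Germ and somatic libraries of the same treatment each correlated best with their own number, a hint from the data. These correlations were small, at 0.09, 0.07 and 0.11 after saline and 0.11, 0.08 and 0.12 after dex. A block of treatment and number together gave 222 calls of the difference over all genes and 0 among the 10. Fosl1 and Egr3 had few germ cell counts, which limits what their intervals can show.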
